A study of Drosophila melanogaster with 2 samples.

Results

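The regions described here are 595 binding peaks of the nuclear receptor Hnf4 whose summits lie just inside genes, at or downstream of the nearest transcription start site (TSS), in Drosophila melanogaster larvae. They were chosen from the authors' optimal list of 5817 peaks in the dm6 build. A peak was taken when its summit lay on arm 2L, 2R, 3L or 3R, within 1000 bp of TSSs of protein-coding genes of 1 strand only, and at or downstream of the nearest of these. The 4 arms held 4735 optimal peaks, so these downstream peaks were 12.6% of them. The other peaks of the arms were 1156 on the upstream side of such TSSs, 819 at divergent promoters with TSSs of both strands in reach, and 2165 farther than 1000 bp from any protein-coding TSS.

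Chromatin immunoprecipitation with sequencing was applied to whole larvae, males and females pooled, taken in the third instar when larvae wander, with the age given as unknown. All carried Hnf4 with green fluorescent protein at its C terminus, stably expressed in 1 transgenic line (Hnf4-GFP). The labels' description names an antibody against that tag and their antibody field names Hnf4 itself, so the labels leave it unclear if Hnf4 without the tag came down too. The samples are 1 group of 2 biological replicates set against a shared control, so no contrast between conditions and no test over samples was possible. Shares below carry 95% exact binomial intervals on numbers of peaks, which cover counting error only, and peaks are not independent replicates. Called regions hold no read counts, so the sequencing depth is unknown, and the tissue makeup of a whole larva cannot be checked from them.

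Hnf4 is a transcription factor of the nuclear receptor family that binds DNA as a dimer, at direct repeats of a short sequence with 1 base between them. In flies it acts in fat body, midgut and other metabolic organs, where it is known for its role in fatty acid oxidation and glucose use. The stretch just inside a gene holds the start of the transcribed region, the 5' untranslated region (UTR) and often the first intron. It is where RNA polymerase pauses in many fly genes, and first introns are a common place for regulatory elements.

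Hnf4 motifs lay at 13 of the 595 summits, and their sequences are given here because the strongest of these peaks were among the strongest of the whole set. An Hnf4 site, CAAAGTCCA on either strand within 100 bp of the summit, was found at 9 peaks, and a direct repeat with 1 base between its repeats at 6, with Mtpalpha and whd holding both. At Mtpalpha and whd the motifs overlap, so they are not separate evidence. The sequences below are 29 bases of the Release 6 reference read in the direction of the motif, with the matched bases in capitals, for 8 of the 13 peaks. The sites were chr2L:9915434-9915462, minus strand, at yip2, chr2L:9576334-9576362, plus strand, at Mtpalpha, chr3R:27677574-27677602, minus strand, at Hsdl2, chr3R:19147826-19147854, plus strand, at Ppcs, and chr2L:13550881-13550909, plus strand, at kuz. These carry the direct repeat:
yip2: caccaacgAGTCCAAAGTTCAgatctctc
Mtpalpha: gagtacaaAGTTCAAAGTCCAgttatgcg
Hsdl2: caagagaaAGTCCAAAGTGCAgattcaac
Ppcs: aacctcggGGTTCAAAGTGCAggccaaaa
kuz: tctgtgtgAGTGCAAAGGCCAatagctgt
The next 3 carry the Hnf4 site without the direct repeat, at chr2L:8204585-8204613, minus strand, at SLC5A11, chr3L:2981038-2981066, minus strand, at CPT2, and chr3L:18997247-18997275, plus strand, at CG18135.
SLC5A11: atttgggttaCAAAGTCCAagtccagggc
CPT2: ggcgacgtttCAAAGTCCAcaacagaaag
CG18135: ccactggctcCAAAGTCCAatttatttgt

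The strongest peak of the set, at yip2, had 2 direct repeats in its window, centred 195 and 256 bp downstream of the TSS, or 14 and 75 bp from the summit. The stretch of the yip2 intron around the summit, chr2L:9915367-9915534 on the plus strand, in the direction of the gene and trimmed to bases outside every annotated exon, is shown to place both repeats, in capitals:
yip2 intron: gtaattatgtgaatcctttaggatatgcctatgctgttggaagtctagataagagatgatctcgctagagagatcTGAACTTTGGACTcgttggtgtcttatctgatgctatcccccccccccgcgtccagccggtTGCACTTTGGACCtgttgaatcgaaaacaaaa
Mtpalpha also had 2 direct repeats, centred 421 and 428 bp downstream of its TSS, which overlap each other. The match nearest to the summit was on the strand opposite to the gene at 11 of the 13 peaks (84.6%, interval 54.5 to 98.1), and at 14 of 18 upstream peaks with a motif (77.8%, 52.4 to 93.6). In both sets most matches thus pointed against the gene, and the intervals of these shares overlap. Around the 13 summits the nearest match was a median of 32 bp away, and it lay within 50 bp at 10 of them.

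Of the 13 genes behind these peaks, 6 stand in the lists of fatty acid oxidation or lipid storage described further on, against 15 of all 523 genes with a downstream peak. For oxidation, 5 encode enzymes of fatty acid oxidation: yip2 a thiolase, Mtpalpha and Mtpbeta both subunits of the mitochondrial trifunctional protein, and whd and CPT2 the carnitine palmitoyltransferases that bring fatty acids into mitochondria. Lpin encodes the phosphatidate phosphatase lipin of fat synthesis, Ppcs an enzyme of coenzyme A synthesis, Hsdl2 a hydroxysteroid dehydrogenase-like protein, and Pdk the kinase that inhibits pyruvate dehydrogenase. SLC5A11 encodes a sodium-coupled solute transporter, kuz a membrane metalloprotease, and shn a zinc finger transcription factor, while CG18135 is named only.

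The yip2 peak had a signal value, the authors' measure of enrichment of a region, of 1227, with 862 in replicate 1 and 360 in replicate 2, and its summit lay 181 bp downstream in an intron. The Mtpalpha peak reached 584.5, with replicate 1 at 423 and replicate 2 at 167, 384 bp downstream in an intron. The Hsdl2 peak had 528 in the pooled list, 363 in replicate 1 and 157 in replicate 2, 40 bp downstream in the 5' UTR. These 3, with Mtpbeta at 419 (287 and 130.3 in the replicates) and Ppcs at 405 (297 and 103), made up the 5 peaks with an Hnf4 motif among the 25 strongest genes, and in each of them replicate 1 was more than 2 times replicate 2. The remaining 8 ran from 291.5 at Lpin, with 154 in replicate 1 and 162 in replicate 2, down to 69.2 at shn. Between them lay whd at 152, SLC5A11 at 130.5, CPT2 at 99.5, kuz at 97.7, Pdk at 74.7 and CG18135 at 72.9. Some of these genes also had a downstream peak without a motif. At whd it was the stronger peak, at 311 (224 and 90.7 in the replicates). At Pdk it was also the stronger, at 79.1, with 72.4 in replicate 1 and no region in replicate 2. At Mtpalpha it was the weaker, at 335. The motif was thus present at peaks from the top to near the bottom of the signal range.

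Hnf4 sites were at 1.51% of the downstream peaks (interval 0.694 to 2.85), against 0.952% of upstream peaks, 0.366% of divergent ones and 0.283% (0.104 to 0.615) of 2121 weaker regions at the same kind of downstream position. The direct repeat was at 1.01% (0.371 to 2.18), against 0.865%, 0.244% and 0.189% (0.0514 to 0.482). Around the 15836 distinct TSS positions of protein-coding genes of the arms, windows of the same length held the site at 0.234% and the direct repeat at 0.145%. The site written backwards, used as a control, was at 0 of 595 downstream peaks, which allows a share of up to 0.618%, and at 0.120% of the TSSs. The intervals of downstream and upstream peaks overlapped for both motifs, while for the site the interval lay above that of the weaker regions. A match is a description of the letters and not a mapped binding event, and 582 of the 595 peaks had neither motif.

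Peaks with and without an Hnf4 motif differed in the balance of the replicates. Over the 13 peaks the log2 of replicate 1 over replicate 2 had a median of 1.21 and ran from -0.08 at Lpin to 1.65 at shn. Over the 565 downstream peaks with a value in each replicate and no motif the median was 0.74, with quartiles of 0.30 and 1.29. Among the 25 strongest genes the 5 with a motif ran from 1.14 to 1.53 and the 20 without had a median of 0.20. Of those 20, hdly at 1.17 and cbt at 1.47 were also over 1, so the ranges overlapped. Among the strongest 25% of optimal peaks outside the downstream peaks, 21 peaks with a motif had a median of 1.09 and 1051 without had 0.41. The replicates were scaled by the authors in a way not stated, so the level of the ratio has no meaning by itself, and the comparison was chosen after these values were seen.

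**Figure D1:**
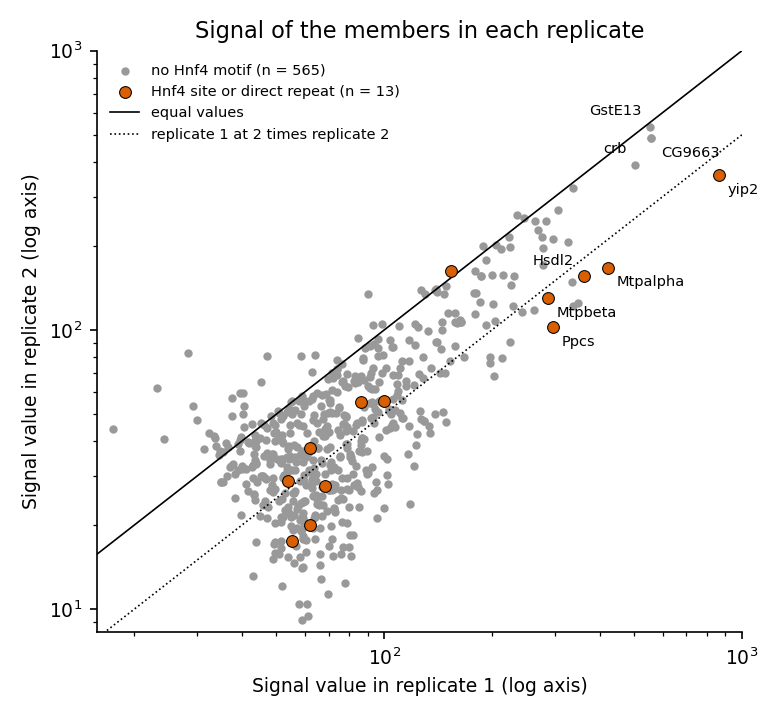
Signal value of each downstream peak in replicate 1 (x axis) and replicate 2 (y axis), both on log axes, for 565 peaks without (grey) and 13 with (orange) an Hnf4 site or direct repeat. The solid line marks equal values and the dotted line a value in replicate 1 at 2 times that in replicate 2. The orange points at yip2, Mtpalpha, Hsdl2, Mtpbeta and Ppcs lie below the dotted line, and GstE13, CG9663 and crb above it. The scaling of each replicate is unknown, so the solid line is a guide to the eye only.

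Among the strongest peaks without an Hnf4 motif, GstE13, a glutathione S-transferase gene, had a signal value of 1082 with 553 in replicate 1 and 531 in replicate 2, 61 bp downstream in the 5' UTR. CG9663 had 1047 with 557 and 487.5, 936 bp downstream in an intron. The peak at crb, the gene of the apical polarity protein Crumbs, reached 888 with 503 and 389.5, 986 bp downstream in an intron. On the log2 scale replicate 1 over replicate 2 was 0.06, 0.19 and 0.37 at these 3, against 1.26 at yip2. Next came Mhcl, a myosin heavy chain-like gene, at 666 (338 and 323), CG42327 at 571 (306 and 269) and Myo61F, an unconventional myosin of the gut brush border, at 531.5 (326 and 206.5). Other genes of the 25 were Cyt-c-p, the somatic cytochrome c gene, at 483, Cerk, a ceramide kinase gene, at 452, Diap1, an inhibitor of apoptosis, at 418, and pnut, a septin gene, at 403. The rest were CG9399, CG2811, Fem-1, mub, aru, Ufsp1, hdly, CG31612, cbt and zf30C, from 436 at zf30C to 531 at CG9399. Of the 25 summits, 8 lay within 100 bp of the TSS, 5 from there to 500 bp and 12 beyond, and 14 were in introns.

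Signal values over all 595 peaks ran from 66.7 to 1227 with a median of 103 and quartiles of 80.7 and 148. Their medians were 70.2 in replicate 1 and 41.0 in replicate 2. Upstream peaks had 121 in the pooled list, 77.8 in replicate 1 and 53.1 in replicate 2, so downstream peaks were lower in each replicate. Of the downstream peaks 43.2% (39.2 to 47.3) were above the median of the optimal list, against 54.7% of upstream and 64.6% of divergent peaks. The medians hardly varied with distance, at 102.5 within 100 bp, 106 from there to 250 bp, just under 100 up to 500 bp and 105 beyond.

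A region of replicate 1 was present at all 595 peaks and a region of replicate 2 at 578 (97.1%). Both strongest sets, the 5817 strongest regions of each replicate, were met by 373 peaks (62.7%, 58.7 to 66.6), against 74.6% of upstream peaks, 78.5% of divergent peaks and 71.0% of all optimal peaks. The gap to upstream peaks lay mainly in replicate 2, whose strongest set met 73.3% of downstream and 84.1% of upstream peaks. For replicate 1 these shares were 87.4% and 88.3%. The signal values of the replicates had a Spearman's rho of 0.58 and, on the log2 scale, a Pearson's r of 0.72 across these 578 peaks, and 0.74 and 0.79 across upstream peaks. The optimal list was derived from these replicates, so these overlaps are in part built in. Against the wider background, 595 of the 2848 relaxed regions at downstream positions were in the optimal list, or 20.9%, near the 19.4% of all 30000 relaxed regions, so that share says nothing particular of downstream positions.

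The summits of single replicates lay on the downstream side for most peaks, which is in part built in, since a replicate's region had to overlap the peak and the pooled summit comes from the same reads. The summit of the overlapping region of replicate 1 was downstream of the same TSS for 95.6% of peaks, that of replicate 2 for 91.5%, and both for 88.6% of the 578 with both. Within 100 bp of the TSS it was both for 72.1%, so the side is least certain for the peaks closest to a TSS. Beyond 250 bp it was both for all peaks with a region in each replicate, where the overlap leaves little room for another side. Just inside the limits lay RpS2 and CG31523 at 0 bp, with signal values of 197 and 88.1, and Svil and Rho1 at 997 and 1000 bp, with 164 and 155. Just outside lay PGRP-LF and Ntan1 at 1 and 2 bp upstream, with 79.3 and 85.6, and CG14537 and tou at 1005 and 1007 bp, with 71.6 and 70.7.

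Downstream peaks made up 34.0% (31.8 to 36.3) of the 1751 one-strand promoter peaks. Of the bases of the arms that could have held such a summit 55.0% are downstream, and of the weaker regions there 47.0% (45.6 to 48.5) were downstream. The strongest regions of replicate 1 gave 36.6% and those of replicate 2 gave 32.1%. Optimal peaks thus leaned to the upstream side in each replicate, and the weaker regions less so.

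The summits fell into a group at the TSS and a group farther inside. Within 100 bp lay 231 peaks (38.8%), from there to 250 bp 50 (8.40%), up to 500 bp 74 (12.4%) and beyond 500 bp 240 (40.3%). Per megabase of eligible sequence this was 219, 33.2, 29.9 and 46.5 peaks. Density was therefore lowest between about 100 and 500 bp and rose again farther in. In replicate 1 the shares were 42.8%, 8.50%, 12.4% and 36.3%, and in replicate 2 they were 35.8%, 9.35%, 12.2% and 42.6%, with the same dip in each. Upstream peaks had no such dip, with 345, 259, 99.8 and 58.1 per megabase over the same distances. Weaker downstream regions had it too, with 20.5% of summits within 100 bp and 53.4% beyond 500 bp.

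**Figure D2:**
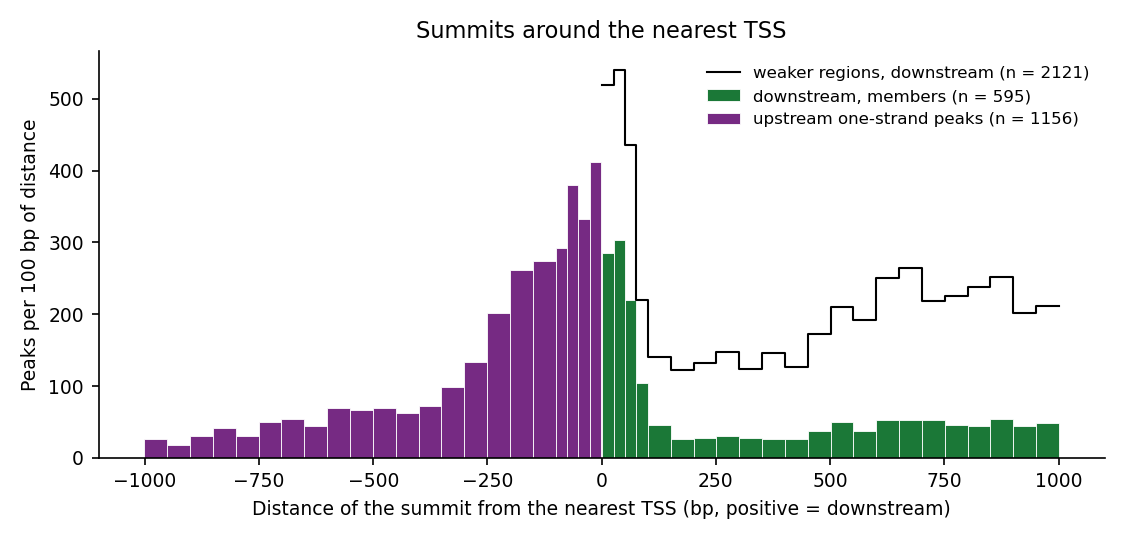
Number of summits per 100 bp of distance (y axis) by distance from the nearest TSS in bp (x axis, positive downstream) for 595 downstream peaks (green), 1156 upstream peaks (purple) and 2121 weaker downstream regions (black line). Downstream summits pile up within 100 bp, are few up to 500 bp and return beyond it, while upstream summits thin out steadily.

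The group at the TSS lay in 5' UTRs and the group farther inside lay in introns. Of all 595 summits, 291 (48.9%, 44.8 to 53.0) were in 5' UTRs, 281 (47.2%, 43.2 to 51.3) in introns and 14 (2.35%, 1.29 to 3.92) in coding exons. The other 9 were in 3' UTRs or outside genes. Within 100 bp the 5' UTR held 95.2% of summits (91.6 to 97.6), against 76.5% of eligible bases and 89.4% (86.1 to 92.1) of weaker regions. Beyond 500 bp introns held 85.0% (79.8 to 89.3), against 37.8% of bases and 70.6% (67.8 to 73.2) of weaker regions. At that distance coding exons held 1.25% of summits (0.259 to 3.61), against 48.1% of bases and 8.66% (7.08 to 10.4) of weaker regions. Replicate 1 alone gave 83.3% in introns beyond 500 bp and replicate 2 alone gave 85.2%. The eligible bases are those at all one-strand TSSs. Genes with a downstream peak were longer than all genes of the arms, with medians of 7690 and 2088 bp. Shares of bases were not computed for genes of like length.

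**Figure D3:**
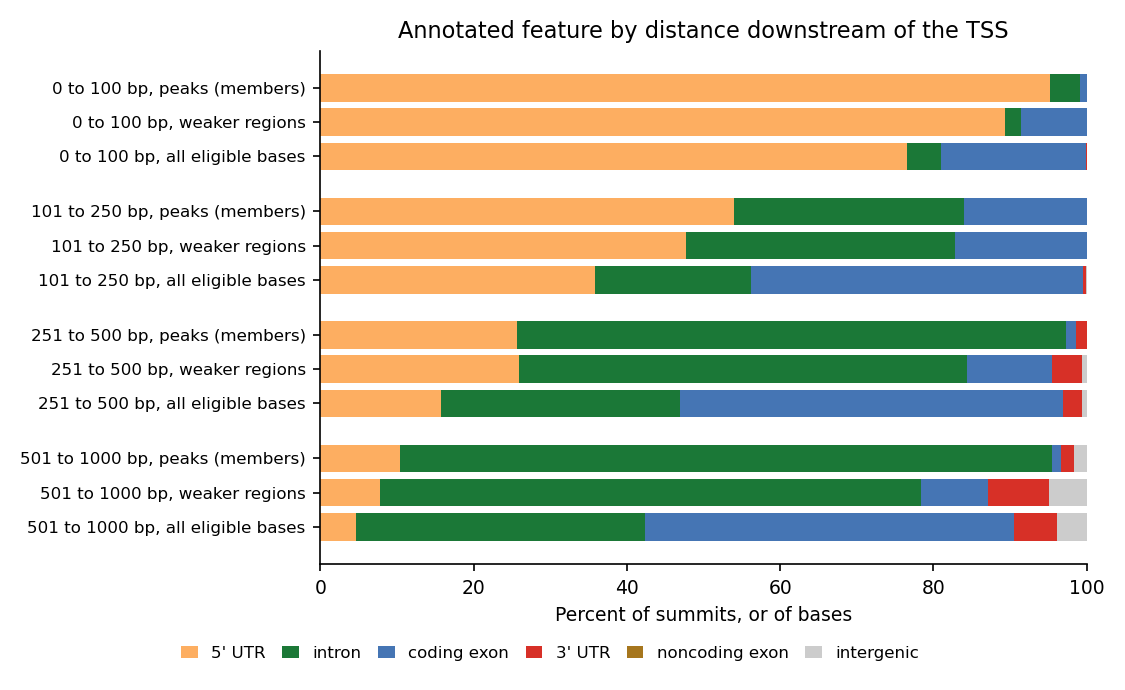
Share of summits or bases (x axis, percent) by annotated feature in 4 ranges of distance downstream of the TSS, for downstream peaks, weaker downstream regions and all eligible bases. Beyond 500 bp introns hold 85.0% of the peaks and 37.8% of the bases. The bases are those at all one-strand TSSs and are not matched for gene length.

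The 14 peaks in coding exons are named because they are few. They lay at Mtpbeta, CG43389, Mtpalpha, AGO2, Est-Q, Pepck1, alpha-Est2, Yeti, Fbp1, CG31259, CG32195, Fbp2, Tsp97E and Lsp2. Their signal values ran from 419 at Mtpbeta to 66.8 at Lsp2, a storage protein gene of the fat body, which had 33.6 in replicate 1 and 41.2 in replicate 2. Fbp1, the receptor gene for such storage proteins, had 104 (59.4 and 45.2 in the replicates) and Fbp2 had 85.7 (60.1 and 24.5). The summits of Lsp2 and Fbp2 were 104 and 137 bp downstream of their TSSs, and that of Fbp1 slightly closer. All 3 are fat body genes, and their peaks were below the median signal value of the optimal list.

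The peaks lay at 523 genes, of which 457 had 1 peak, 60 had 2 and 6 had 3. Genes with 3 were CG9663, Trl, the GAGA factor gene, Eip75B, an ecdysone-induced nuclear receptor gene, pAbp, the poly(A)-binding protein gene, Shrm, a shroom family gene, and Acsl, a long-chain acyl-CoA ligase gene. These genes were long, with a median of 7690 bp for all 523, against 5922 bp for genes with an upstream peak and 2088 bp for all protein-coding genes of the arms. More than 1 TSS was annotated for 65.0% of them, against 54.6% of genes with an upstream peak and 25.5% of all. For 258 of the 595 peaks (43.4%) a further TSS of the same gene lay beyond the summit, for 88 of them within 1000 bp. For those peaks, downstream of the nearest TSS is also upstream of another. At 156 genes an upstream peak was present as well, and 207 peaks (34.8%) had another optimal summit within 1000 bp, against 26.6% of upstream peaks. Within 500 bp the order was the reverse, at 8.2% of downstream and 12.2% of upstream peaks. Within 2000 bp the shares were 53.3% and 46.9%.

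Genes of fatty acid oxidation held downstream peaks at 9 of 19 members (47.4%, 24.4 to 71.1), against 4.48% of all 11669 protein-coding genes of the arms. Besides the 5 with an Hnf4 motif these were Etf-QO, which passes electrons from fatty acid oxidation to ubiquinone, Echs1, an enoyl-CoA hydratase gene, Mcad, a medium-chain acyl-CoA dehydrogenase gene, and Acsl. The Etf-QO peak had a signal value of 366 with 262.5 in replicate 1 and 118 in replicate 2. Echs1 had 189 with 146 and 51.0. Mcad had 183, and the overlapping regions of the replicates, which also cover another summit, had 349 and 125. On the log2 scale replicate 1 over replicate 2 was 1.15 at Etf-QO, 1.51 at Echs1 and 1.48 at Mcad, which hold no motif within 100 bp of the summit. At the 3 peaks of Acsl, also without a motif, it was 0.18, -0.00 and 1.46. The peaks without a motif at whd (311) and Mtpalpha (335) had 1.31 and 1.34. The replicate values of that Mtpalpha peak are shared with its peak that has a motif. Of the 565 downstream peaks without a motif, 211 were over 1 (37%). Among those in the strongest 25% of optimal peaks, where Etf-QO, Echs1, Mcad and the whd and Mtpalpha peaks without a motif lay, 17 of 91 were over 1 (18.7%). The median of those 91 was 0.45, so such values were less common at that strength. Upstream peaks were at 3 of the 19 genes (15.8%) and divergent ones at 4 (21.1%), against 8.24% and 12.3% of all genes. A promoter peak of some kind was at 14 (73.7%), against 22.4%. The list was known to carry peaks from earlier results of these data, so its count is a description.

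Other lists of fat and nutrient genes were also above the background. For these lists and for fatty acid oxidation, that background of all genes was not matched for gene length or number of TSSs. Both were higher in genes with a downstream peak. Lipid storage and synthesis had 6 of 15 genes (40%, 16.3 to 67.7). These were Lpin, Cds, a CDP-diacylglycerol synthase gene, at 278 (203 and 68.5 in the replicates), Sik3, a kinase gene, at 126, bmm, the triglyceride lipase gene brummer, at 125, mdy, a diacylglycerol acyltransferase gene, at 72.6, and Desat1, a desaturase gene, at 67.1. Fat body markers had 5 of 10 (50%, 18.7 to 81.3), which were Lpin, Mtp, the triglyceride transfer protein gene, at 132, Fbp1, Fbp2 and Lsp2. That share was 30% when only peaks at strong regions of both replicates were kept and 20% in the stronger 50% of the list. Insulin and nutrient signalling had 5 of 20 (25%, 8.66 to 49.1), with Thor, the 4E-BP gene, at 289 (179 and 114 in the replicates), the kinase gene Akt at 215 (153 and 77.5) and the insulin receptor gene InR at 102 (57.7 and 45.7), besides Lk6 and REPTOR. Nuclear receptors and ecdysone response genes had 4 of 22 (18.2%, 5.19 to 40.3): Eip75B at 253, Hnf4 itself at 82.6, Hr39 at 74.7 and EcR at 72.4. The summit of this Hnf4 peak was in the 5' UTR, 389 bp downstream, with 37.6 in replicate 1 and 49.2 in replicate 2, 1 of the weaker peaks. Another downstream peak at Hnf4, at 68.45, had 28.7 in replicate 1 and no region in replicate 2. Lpin stands in 2 of these lists, and midgut markers had 2 of 11 genes, Myo61F and GATAe at 93.2, with an interval of 2.28 to 51.8 that holds the background. Most of these lists were not raised for downstream peaks alone. Upstream and divergent peaks were at 40% and 33.3% of lipid storage and synthesis genes, against 8.24% and 12.3% of all genes. For insulin and nutrient signalling these shares were 35% and 30%, and for nuclear receptors and ecdysone response genes 22.7% and 13.6%. For fat body markers they were 10% and 0.

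For lists of other kinds the interval held the background of 4.48%. Cytosolic ribosomal proteins had 6 of 77 genes (7.79%, 2.91 to 16.2), among them RpS2 at 197, RpL10 at 94.3 and RpL21 at 91.4, and 27 of the 77 (35.1%) had a divergent peak, against 12.3% of all genes. Mitochondrial ribosomal proteins had 0 of 62, which allows a share of up to 5.78%, while 27 (43.5%) had a divergent peak. Translation factors had 2 of 43, eEF1alpha1 at 177 and eEF2 at 153. Vacuolar ATPase had 1 of 31 (Vha100-2 at 118), Rab GTPases 2 of 25 (RabX1 at 220.5 and Rab5 at 103), glycolysis and glucose genes 2 of 18 (Pepck1, a phosphoenolpyruvate carboxykinase gene, at 121 and Glyp, the glycogen phosphorylase gene, at 79.0), and homeotic and patterning genes 1 of 23 (hth at 100.8). Polycomb and trithorax genes had 2 of 18 (Su(z)2 at 125 and Psc at 100.7), pausing and core promoter factors 2 of 27 (Trl at 278 and mod(mdg4) at 83.3), and muscle markers 1 of 11 (Zasp52 at 136). Heat shock proteins had 0 of 23, midgut digestive enzymes 0 of 36, neuron markers 0 of 6, germ line and testis markers 0 of 14, and larval cuticle proteins 1 of 112 (Cpr49Ac at 94.9). For downstream peaks, none of these lists could be told from all genes at this number of genes. Promoter peaks of any kind were at 0 of the neuron markers and up to 59.7% of cytosolic ribosomal protein genes, against 22.4% of all genes. Glycolysis and glucose genes had them at 55.6%, with upstream peaks at 33.3% and divergent ones at 22.2%.

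**Figure D4:**
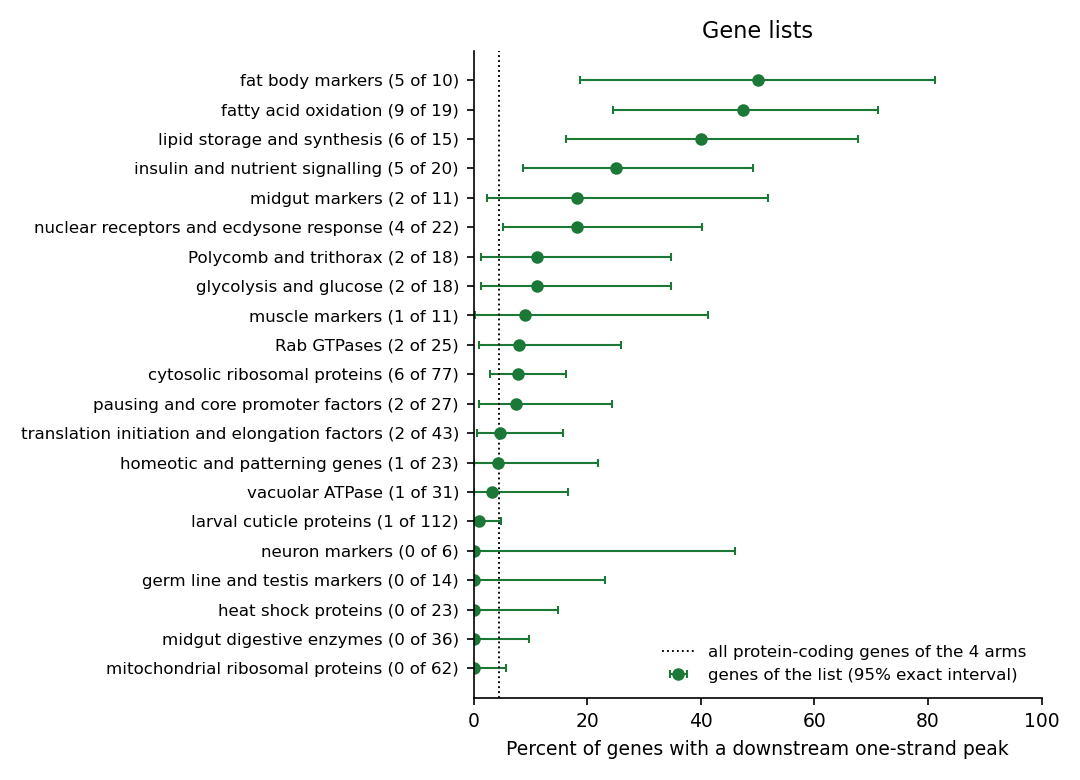
Percent of the genes of each list with a downstream one-strand peak (x axis), with 95% exact binomial intervals, and the number of genes in brackets. The dotted line is the 4.48% of all protein-coding genes of the 4 arms, not matched for gene length or number of TSSs. Fatty acid oxidation is at 47.4%, fat body markers at 50% and lipid storage and synthesis at 40%, and mitochondrial ribosomal proteins at 0.

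Motifs of core promoters followed the distance from the TSS. The pause button, a short element near paused polymerase (G or T, then CG, A or G, A or T, then CG), was within 100 bp of 17.1% of summits (14.2 to 20.4), against 9.95% of upstream peaks, 11.8% of weaker downstream regions and 15.7% of all TSSs. Within 100 bp of the TSS it was at 31.6% of the peaks, near the 28.6% of weaker regions there, and beyond 500 bp at 7.08% and 6.18%. The share thus went with the place and hardly with the strength of the region. Searched at its usual place around the TSS instead, the pause button was at 12.1% of TSSs with a summit within 100 bp. That was near the 11.8% of TSSs with a downstream summit beyond 500 bp. Examples are given because the element was most frequent around summits next to the TSS, with its bases in capitals. They are centred 129 and 47 bp downstream of the TSS, at chr2L:129102-129130, minus strand, at CG3164 (signal value 288.5), and chr3L:131845-131873, minus strand, at Pdk1 (273):
CG3164: gaatcgagaacGCGAACGaaaaaccaaac
Pdk1: tgtgtgcgtagTCGAACGccgcgtgcacg

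Sites of 2 other promoter factors were rare. GGTCACAC, the site of motif 1 binding protein, was at 14 peaks (2.35%), all of them within 100 bp of the TSS, against 3.46% of upstream and 5.62% of divergent peaks, and at 1.26% without replicate 1. TATCGATA, the DNA replication-related element, was at 11 (1.85%, 0.926 to 3.28), against 5.80% (4.52 to 7.30) of upstream peaks, 12.1% of divergent peaks and 5.83% of all TSSs. With 1 TSS per gene the latter share was 3.71%. Windows around a summit often do not reach the TSS. Searched around the TSS instead, TATCGATA was at 4.79% (3.18 to 6.89) of TSSs with a downstream peak. That compares with 6.21% (4.84 to 7.82) of TSSs with an upstream peak and 3.21% of all one-strand TSSs. An example of each, shown for its place just upstream of the TSS with the matched bases in capitals, is chr3L:16609367-16609395, plus strand, at CG4098, and chr2L:8381766-8381794, plus strand, at the alanyl-tRNA synthetase gene AlaRS:
CG4098: aggaccagctGGTCACACtaggccgcata
AlaRS: ctggatgagaTATCGATAgatttagagat

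Repeats of GA and CA were more frequent. GAGAGAG, bound by the GAGA factor, was at 9.92% of downstream peaks (7.63 to 12.6), 8.56% of upstream peaks, 3.18% of divergent ones and 4.29% (3.47 to 5.24) of weaker downstream regions. Within 50 and 200 bp of the summit it was at 3.70% and 24.9% of downstream peaks. CACACAC was at 13.9% (11.3 to 17.0), against 8.74% (7.17 to 10.5), 4.76% and 8.49% (7.33 to 9.75). Around all TSSs these were at 4.57% and 6.20%. For CACACAC the interval of downstream peaks lay above those of upstream and weaker regions. The sequence TTGTTTAC of FOXO was at 1.68% (0.809 to 3.07), below the 3.72% of upstream and 3.87% (3.09 to 4.78) of weaker regions, and AGATAAG of GATA factors was at 3.70%, against 3.11% and 4.39%.

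**Figure D5:**
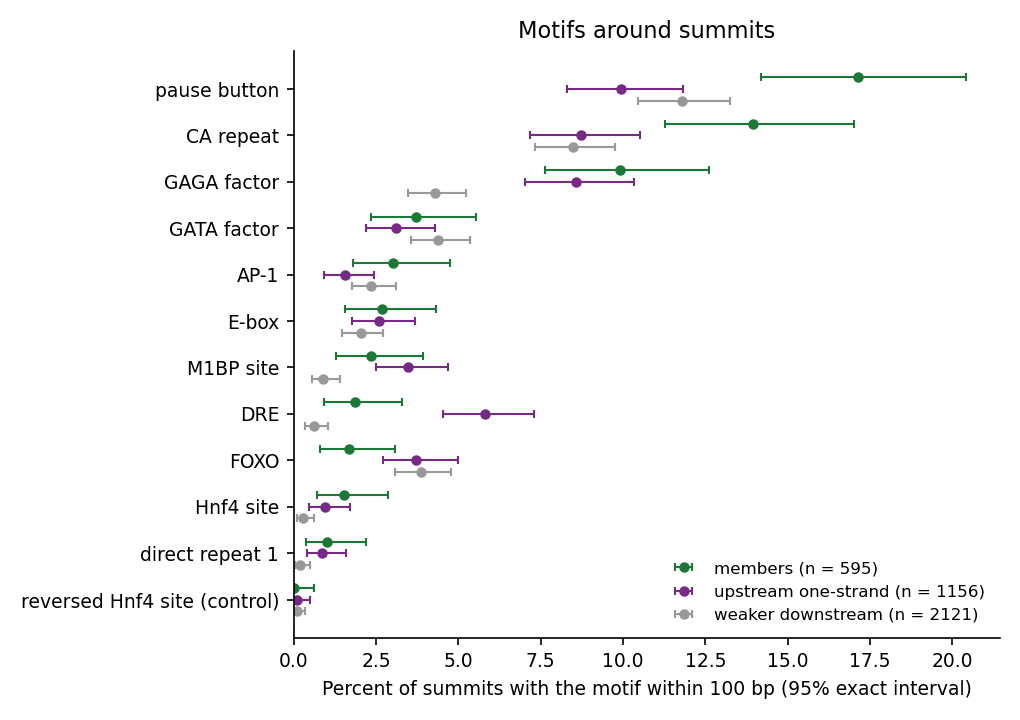
Percent of summits with each motif within 100 bp (x axis, 95% exact binomial intervals) for 595 downstream peaks (green), 1156 upstream peaks (purple) and 2121 weaker downstream regions (grey). The pause button is at 17.1%, 9.95% and 11.8%, and the Hnf4 site at 1.51%, 0.952% and 0.283%.

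The TSSs next to these peaks were also searched for core promoter elements, each at its usual place. An initiator was at 22.5% (19.1 to 26.2) of 564 TSSs with a downstream peak, against 18.2% (15.9 to 20.6) of 1079 with an upstream peak and 14.8% of all 10657 one-strand TSSs. At TSSs with a summit within 100 bp it was at 32.5% (26.5 to 38.9) for downstream peaks and at 11.9% (8.69 to 15.7) for upstream peaks. The downstream promoter element was at 4.97% (3.32 to 7.10), against 2.60% and 1.52%, and the TATA box at 4.79%, against 3.71% and 8.36%. The motif 1 binding protein site, searched here around the TSS and not the summit, was at 7.62% (5.57 to 10.1). That compares with 4.63% (3.46 to 6.06) of TSSs with an upstream peak and 3.34% of all. With a summit within 100 bp it was at 6.49% for downstream and 7.91% for upstream peaks, and beyond 500 bp at 10.1% and 1.44%. Around the summits downstream peaks had the lower share, but the intervals overlapped (1.29 to 3.92 and 2.48 to 4.68). The pause button was at 10.5% (8.06 to 13.3), against 8.34% (6.76 to 10.2) and 5.15%. Initiators were thus most frequent where the summit lay just inside the gene. Within 100 bp of the summit the median content of G and C was 41.3% for downstream and 37.3% for upstream peaks. Within 100 bp of the TSS it was 44.8% for downstream peaks and 44.3% for weaker regions. From there to 250 bp it was 41.0% and 37.8%, up to 500 bp 38.8% and 36.8%, and beyond 38.3% and 35.8%. Base composition thus moved with the place, and farther than 100 bp from the TSS it also differed between peaks and weaker regions. Its part in the motif shares was not tested.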

How the data were processed

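The authors deposited region lists of Hnf4-GFP chromatin from whole larvae in narrowPeak format, per the deposited file descriptions: a relaxed list for each of 2 biological replicates, a relaxed list of both pooled, and an optimal list derived from them by the irreproducible discovery rate, all against a shared control. Each region carries the authors' signal value, as deposited, and the offset of its summit. The scaling of the signal, and which aligner and peak caller were run, are not stated in those descriptions. The dm3 lists and signal tracks were not used here. Read counts are not in these lists, so depth is unknown.

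Positions are in dm6, 1-based. TSSs and features came from Ensembl release 115 (protein-coding transcripts), and sequence from the Release 6 reference, within whose lengths all regions of the 4 arms lay. A summit in several features was counted as coding exon, 5' UTR, 3' UTR, other exon or intron, in that order. The value of a peak in a replicate is that of the strongest region overlapping it by at least 1 bp. Where 2 summits share an interval, as at CG9663 and Mtpalpha, or 2 intervals overlap the same replicate region, as at pAbp, they share that value. Weaker regions are relaxed pooled regions that overlap no optimal peak. Both strands within 100 bp of a summit were searched for motifs, and core elements at fixed places around the TSS. Shares have exact (Clopper-Pearson) 95% intervals. With 1 group no test over samples was made, and no p-value is given.

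The members, motifs and gene lists were chosen with earlier results of these data known. Named genes are the 25 strongest at strong regions of both replicates, up to 3 per list, all with an Hnf4 motif, those at the limits and those with 3 peaks. The peaks in coding exons, any further list genes, CG3164, Pdk1, CG4098 and AlaRS were named after their values were seen. Lists use the annotation's symbols, with other spellings, as GlyP for Glyp and CdsA for Cds, resolved through RefSeq synonyms after values were seen. All names matched, and genes off the 4 arms were left out. The functions were checked on simulated regions. Tools were scipy 1.17.1, pandas 2.3.3, numpy 2.4.6, matplotlib 3.10.9 and Python 3.11.15.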

Additional observations from a re-analysis of the deposited data

How the results depend on the processing

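Of 201 recomputed values, 155 stayed within the interval of the value reported (counts within 1.5 times) and 46 did not. Settings that shorten the window, keep stronger peaks or leave out the first 100 bp change the set by construction, and for the others the cause was not tested. The number of peaks was 257 in the stronger 50% of the list, 373 at strong regions of both replicates and 365 at 100 bp or more from the TSS, with 244, 341 and 328 genes. The downstream share was 28.1% with a TSS window of 500 bp, 36.9% with 2000 bp, 40.1% with 1 TSS per gene, 28.9% in the stronger 50%, 30.2% at strong regions of both replicates and 31.3% at 100 bp or more from the TSS. It ran from 32.1% to 36.6% with 1 replicate left out. The share within 100 bp of the TSS was 65.7% and 27.8% with windows of 500 and 2000 bp, 31.2% with 1 TSS per gene and 34.4% with TSSs of all annotated genes. Introns held 21.3% and 56.0% with those windows, 74.5% at 100 bp or more from the TSS, and 42.5% to 48.9% with a replicate left out. The initiator was at 17.8% with 1 TSS per gene and 16.9% at 100 bp or more. The pause button was at 23.9% with a window of 500 bp, 7.95% at 100 bp or more, and 10.6% and 27.6% with motif windows of 50 and 200 bp. Support by both replicates was 96.5% in the stronger 50%, 57.5% when the overlap had to cover 50% of the peak, and 59.8% to 68.2% with a replicate left out. Of the 257 downstream peaks in the stronger 50% of the list, 37.7% were above the median signal value of that 50%. Hnf4 site shares ran from 1.01% to 2.19%, and fatty acid oxidation genes from 36.8% to 47.4%. No paired analysis was possible because there is 1 group. Support at strong regions of both replicates has no value where peaks were chosen by it, nor distance where the first 100 bp were left out.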
